A study of Mus musculus with 2 samples.

Results

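Peptides are shown to T cells by the proteins of the major histocompatibility complex (MHC), a dense gene region called H2 in the mouse. Class I molecules pair a heavy chain, such as those encoded by H2-K1 and H2-D1, with beta-2 microglobulin (B2m); their peptides are cut in the cytosol, pumped into the endoplasmic reticulum by the transporter of Tap1 and Tap2, and fitted with the help of tapasin. Class II molecules are pairs of alpha and beta chains that travel with the invariant chain, encoded by Cd74, and receive peptides from endosomes through the exchange factor H2-DM; most resident peritoneal macrophages carry little class II, while B cells and dendritic cells carry much.

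The genes described here are those of the Affymetrix platform annotation with a single symbol that starts with H2-, together with the named loading and accessory genes B2m, Tap1, Tap2, Tapbp, Tapbpl, Erap1, Nlrc5, Cd74, Ciita, Cd1d1, Cd80 and Cd86. This gave 35 of 18193 genes, read by 72 of 45037 probe sets. They were 13 class I heavy chain genes or pseudogenes, 9 class II chain genes or pseudogenes, the 12 loading and accessory genes, and H2-Ke6, which lies in the region and keeps an H2 name but encodes a steroid dehydrogenase and no MHC chain. Another 15 probe sets carried several symbols with at least 1 of these genes among them, and are given apart.

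The cells were peritoneal macrophages of male C57BL/6 mice, transfected with Control siRNA (1 array) or with HDAC9 siRNA (1 array) and harvested 48 h later. The labels give neither the age or number of the mice nor whether their RNA was pooled, and both groups went through transfection, with no untransfected array used here. No group had a second array, so no test was possible, and each ratio below compares 2 arrays, not 2 conditions. C57BL/6 mice carry the H2-b haplotype, in which the class II gene H2-Ea is silent through a promoter deletion and the class I gene H2-L is missing.

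The siRNA target was barely measurable. By probe set 1434572_at the log2 signal of Hdac9 was 6.88 with control and 5.69 with HDAC9 siRNA, and by 1421306_a_at it was 5.99 and 5.94, against a background floor of 6.34. The floor is the 95th percentile of 80 probe sets for olfactory and vomeronasal receptors, and signals under it were raised to it before the control signal was subtracted from the HDAC9 siRNA signal to give a log2 ratio, so that a ratio becomes a bound ("at least") when 1 signal is raised. Some 12090 genes exceeded the floor on 1 array or both, with a median log2 ratio of 0.03. All 10 macrophage markers were above background, with a median of 0.01. Of these, 6 had a ratio above 0 and 4 below, from Cd14 at -0.46 to Fcgr1 at 0.43 and Gata6 at 0.46. The scatter of a single probe set, from the difference between the 2 brightest probe sets of 5671 genes, was 0.29 log2 units; it leaves out any difference between cultures.

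Of the 35 genes, 26 exceeded the floor on 1 array or both, 24 of them on both. None was at least 2-fold higher and none at least 2-fold lower, against 1.44% and 0.372% of all genes above background; for H2-T3 and H2-Eb2, above the floor on 1 array, the ratio is a bound and a larger difference cannot be seen. At least 1.5-fold higher were 2 genes, the class I pseudogene H2-Q5 and Nlrc5, and none was lower by that much; the shares over all genes were 7.81% and 2.79%. A ratio above 0 was found for 16 of the 26 genes, against 54.1% of all genes, and the median was 0.08. By group the medians were 0.11 for 8 class I genes, 0.17 for 11 loading and accessory genes and -0.18 for 6 class II genes.

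**Figure D1:**
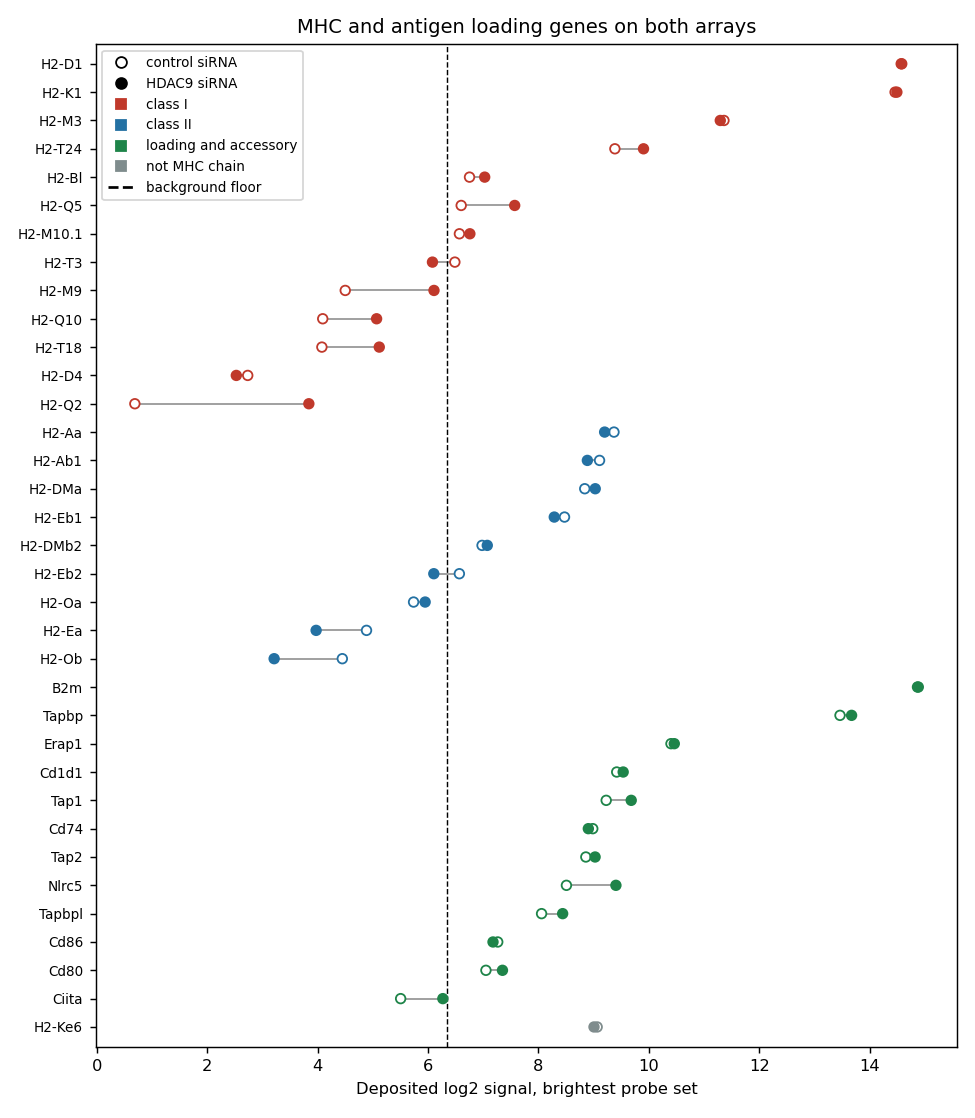
Deposited log2 signal of each gene's brightest probe set (x axis) on the control siRNA array (open circles) and the HDAC9 siRNA array (filled circles), 1 array each, coloured by group; the dashed line is the background floor at 6.34. The circles of H2-D1, H2-K1 and B2m nearly coincide above 14, those of Nlrc5, H2-T24 and Tap1 are moved to the right on the HDAC9 siRNA array, and 9 genes lie below the floor on both arrays. Signals of different genes come from different probes and are not set against each other.

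The classical class I heavy chains differed by at most 0.03 log2 units between the arrays by their brightest probe sets. H2-K1, which encodes the K molecule that presents peptides to CD8 T cells, had log2 signals of 14.46 with control and 14.49 with HDAC9 siRNA, a log2 ratio of 0.03. H2-D1, the gene of the D molecule, had 14.57 and 14.58, a ratio of 0.01, which was below 0 after centring on the median. B2m, the light chain shared by all class I molecules, had 14.88 and 14.87, a ratio of -0.01, which was above 0 after quantile normalization and after loess. All these differences were far smaller than the single-probe-set scatter. These signals were among the brightest of the array: out of 45037 probe sets on the control array, that of B2m ranked 16, that of H2-D1 69 and that of H2-K1 100, and the highest signal on either array was 15.2. Whether such bright probe sets respond in proportion to the transcript was not tested.

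The other probe sets named for H2-K1 and H2-D1 were less uniform. H2-D1 had 9 probe sets. The 4 with a control log2 signal of 10 or more had ratios from -0.06 to 0.07. Of the 5 dimmer ones, 2 were below background on both arrays and 3 were higher on the HDAC9 siRNA array: 1450170_x_at went from 6.71 to 8.58 (ratio 1.87, 3.65-fold), 1452544_x_at from 5.83, below background, to 7.56 (at least 2.32-fold), and 1427651_x_at from 6.70 to 7.35 (0.65). For H2-K1, 1427746_x_at went from 12.89 to 13.58 (0.69) and 1450534_x_at from 9.38 to 9.65 (0.27), while 1451931_x_at, with 14.26 and 14.23, was at -0.03. Names ending in _x_at mark probe sets with probes that can bind transcripts of other genes. Class I heavy chain genes are close copies of each other, so which transcript such probe sets read is uncertain. This holds for the dimmer ones and also for the brightest, 1425336_x_at for H2-K1 and 1425545_x_at for H2-D1. Among all probe sets above background, 1.43% were at least 2-fold higher; among the 17 class I probe sets above background 2 were, both named for H2-D1.

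The proximal promoters of H2-K1, H2-D1 and B2m are shown because these are the genes of the complete class I molecule and their brightest probe sets gave the same near-zero difference. Each sequence is the 250 bases before the annotated start (RefSeq, GRCm38.p6), 5′ to 3′ on the gene's strand. Capitals mark matches, on either strand, to the interferon-stimulated response element core (GAAA, then 2 bases, then GAAA), to the kappaB core GGATTCC of class I promoters, and to the Y box ATTGG, a site bound by NF-Y. The motifs do not overlap in the promoters printed here, and H2-K1 has another annotated start close by that is not shown.
H2-K1, chr17:34000348-34000597, minus strand: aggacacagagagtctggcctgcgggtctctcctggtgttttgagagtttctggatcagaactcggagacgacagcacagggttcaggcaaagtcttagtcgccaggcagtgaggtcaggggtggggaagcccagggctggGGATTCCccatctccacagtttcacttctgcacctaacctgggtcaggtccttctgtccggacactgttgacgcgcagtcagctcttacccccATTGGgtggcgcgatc
H2-D1, chr17:35262844-35263093, plus strand: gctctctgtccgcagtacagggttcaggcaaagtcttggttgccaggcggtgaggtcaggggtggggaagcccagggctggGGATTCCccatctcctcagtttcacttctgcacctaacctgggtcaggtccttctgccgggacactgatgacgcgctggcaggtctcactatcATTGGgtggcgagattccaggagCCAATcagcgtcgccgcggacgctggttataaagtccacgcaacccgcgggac
B2m, chr2:122147437-122147686, plus strand: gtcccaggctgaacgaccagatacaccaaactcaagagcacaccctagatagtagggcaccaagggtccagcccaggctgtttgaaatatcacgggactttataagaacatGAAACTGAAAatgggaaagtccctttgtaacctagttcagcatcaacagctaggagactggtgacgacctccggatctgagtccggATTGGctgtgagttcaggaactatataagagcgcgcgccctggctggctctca

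The kappaB letters were found in 1041 of 32851 promoters of this length (3.17%), the H2-K1 and H2-D1 promoters among them. The interferon element core was in 2.98% of promoters, B2m's among them, where it begins at position -139 from the start. Only exact matches to these letters were counted, so other forms of the element in H2-K1 or H2-D1 were not searched. The Y box letters were in 33.8% of promoters, so their presence in all 3 is not rare. RefSeq promoters were matched for 21 of the 35 genes. These matches describe letters in a window and not binding.

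The class I genes outside the K and D loci, called nonclassical, gave larger differences by brightest probe set than H2-K1 and H2-D1 did, all smaller than the 1.87 of a dim H2-D1 probe set. H2-Q5, annotated as a transcribed pseudogene in the RefSeq table, went from 6.60 with control to 7.57 with HDAC9 siRNA by 1430802_at (1.96-fold higher, a log2 ratio of 0.97). Its control signal was near the floor, its other probe set was not above background on either array, and under the higher floor, the 99th percentile of receptor signals, its ratio was a bound of at least 0.64. H2-T24, of the T region, went from 9.38 to 9.90 (1.43-fold higher, 0.52). H2-Bl, another transcribed pseudogene, went from 6.75 to 7.03 (0.28), a difference within the single-probe-set scatter.

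The remaining single-symbol class I genes differed little or were not measured. H2-M3, whose product presents formylated bacterial peptides, had 11.36 with control and 11.29 with HDAC9 siRNA, a ratio of -0.07. H2-M10.1, of a family expressed in vomeronasal neurons, lay just above the floor with 6.57 and 6.76. H2-T3, the gene of the thymus leukaemia antigen, was above the floor only on the control array, with 6.49 against 6.08, and thus lower by at least 0.15 log2 units. Both signals were below background for H2-D4, H2-M9, H2-Q2, H2-Q10 and H2-T18, which have no ratio here.

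Probe sets that carry several class I symbols read mostly genes of the Q and T regions, and all those above background were higher on the HDAC9 siRNA array. Among those above background, H2-Q5 is the only nonclassical gene that also has a ratio of its own above. Of 12 such probe sets 9 were above background, all 9 with a ratio above 0 and a median of 0.31, against 53.4% of all probe sets above background with a ratio above 0 and a median of 0.02. Some of them share target genes, so they are not 9 separate observations. The median of all genes also depended on mean log2 signal: 0.14 under 8, 0.06 from 8 to 10 and -0.06 from 12 upward. The 9 probe sets lay in these ranges. The probe set for H2-Q6 and H2-Q8, 1431008_at, went from 7.86 to 9.21 (2.54-fold higher, a log2 ratio of 1.35), and was the only one of the 9 past 2-fold.

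The other probe sets of the Q region were also higher. The probe set for H2-Q7 and H2-Q9, which encode the Qa-2 antigens, went from 8.93 to 9.53 (1.52-fold). A probe set shared by H2-Q4, H2-Q6 and H2-Q8 went from 6.51 to 7.02 (0.51). That shared by H2-Q5 and H2-K1 went from 6.89 to 7.10 (0.21), less than the scatter.

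In the T region, H2-T23 encodes Qa-1, the class I molecule seen by inhibitory NKG2A receptors. Its bright probe set, shared with the pseudogene H2-T-ps, went from 13.73 to 13.90 (0.18), and the dimmer 1419658_at from 7.09 to 7.65 (0.56). The probe set shared by H2-T9, H2-T10 and H2-T22, ligand genes of some gamma-delta T cell receptors, went from 12.53 to 12.84 (0.31), while its partner 1439121_at was below background on both arrays. The probe set shared by H2-K1 and H2-D1, with 13.20 and 13.26, had a ratio of 0.07, near those of the brightest single-symbol probe set of each gene. The probe set shared by H2-Q2, H2-D1 and Gm38417 was at the floor on the control array and at least 0.14 higher on the other.

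**Figure D2:**
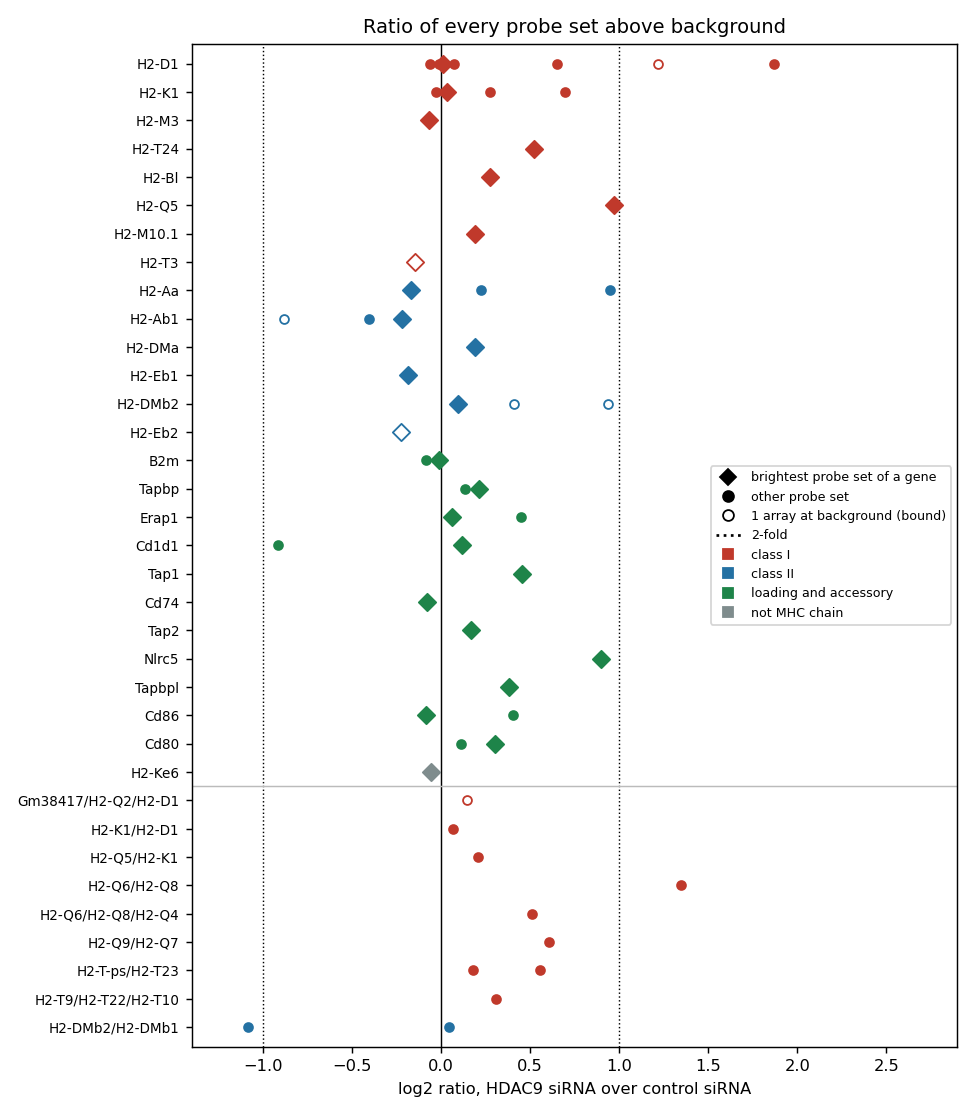
Ratio of the HDAC9 siRNA signal to the control signal, in log2 units (x axis), for every probe set above background, 1 row per gene, with probe sets of several symbols under the grey line; diamonds are each gene's brightest probe set, open markers are bounds and dotted lines mark 2-fold. The 9 class I probe sets with several symbols all lie right of 0, the H2-D1 row runs from -0.06 to 1.87, and the probe sets of H2-Aa, H2-DMb2 and Cd1d1 spread on either side of 0 or up to 0.95.

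Nlrc5, the transactivator that drives class I, B2m and Tap1 genes as Ciita does for class II, had the largest difference of the loading and accessory genes by brightest probe set; a second probe set of Cd1d1, described further on, differed about as much in the other direction. Its only probe set, 1437176_at, went from 8.51 with control to 9.40 with HDAC9 siRNA, 1.86-fold higher (0.90). Tap1, 1 of the subunits of the peptide transporter, went from 9.23 to 9.68 (1.37-fold, 0.45), and its other 3 probe sets were below background on both arrays. Both genes were higher by more than the 0.29 scatter.

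The remaining parts of the loading machinery differed less. Tap2, the partner of Tap1, went from 8.86 to 9.03 (0.17). Tapbp, which encodes tapasin, the bridge between the transporter and empty class I molecules, went from 13.46 to 13.67 (0.21), and its dimmer probe set from 11.02 to 11.16 (0.13). Tapbpl, the gene of the tapasin-related peptide editor TAPBPR, went from 8.06 to 8.44 (1.30-fold, 0.38). Erap1, the aminopeptidase that trims peptides in the endoplasmic reticulum, was at 0.06 by its brighter probe set (10.40 and 10.46) and at 0.45 by the dimmer (8.55 and 8.99). Of B2m, Tap1, Tap2, Tapbp, Tapbpl, Erap1 and Nlrc5, the 7 genes of class I assembly and its transactivator, 6 had a positive ratio, with a median of 0.21, against 54.1% and a median of 0.03 over all genes; these directions did not change under centring, quantile normalization or loess, except that of B2m.

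The spread and the median of ratios depend on signal, so the members were placed among genes of like brightness. Over all genes the median was 0.14 under a mean log2 signal of 8 and 0.06 from 8 to 10. It was -0.02 from 10 to 12 and -0.06 from 12 upward. Genes with a mean log2 signal from 8 to 10 had 5th and 95th percentiles of -0.43 and 0.66. Nlrc5 lay above that range, and Tap1 and H2-T24 inside it. Under a mean of 8 the percentiles were -0.64 and 0.88, with H2-Q5 above them. From 12 upward they were -0.30 and 0.26, which held Tapbp, H2-K1, H2-D1 and B2m. In all, 2 of the 26 measured members, Nlrc5 and H2-Q5, were above the 95th percentile of their range and 0 were below the 5th.

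**Figure D3:**
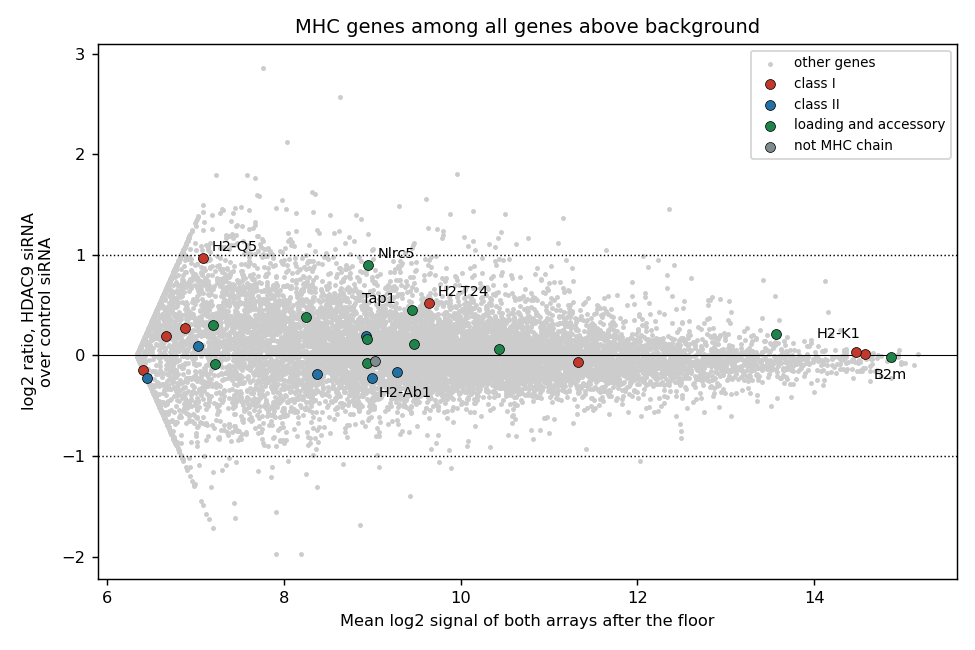
Ratio of the HDAC9 siRNA signal to the control signal, in log2 units (y axis), against the mean log2 signal of both arrays after the floor (x axis), 1 point per gene above background, with MHC and loading genes coloured by group. Of the coloured points, Nlrc5 at 0.90 and H2-Q5 at 0.97 are the highest, and the grey cloud narrows toward the bright end, where B2m, H2-K1 and H2-D1 lie near 0.

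Other genes that supply class I peptides were at small ratios. Of 13 such genes above background, none was past 1.5-fold by brightest probe set and the median was 0.06. Psmb9, a catalytic subunit of the immunoproteasome whose gene lies next to Tap1 in the RefSeq gene order, had 10.47 and 10.70 (0.24), while Psmb8, between Tap1 and Tap2 in that order, had 11.71 and 11.76 (0.06). The aminopeptidase gene Npepps was at 0.25, Pdia6, an endoplasmic reticulum oxidoreductase, at -0.24 and the proteasome activator gene Psme3 at 0.13. The chaperone genes Calr and Canx were at -0.07 and -0.10.

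The Tap1 promoter is shown because Tap1 had the largest ratio among the transporter and tapasin genes, and because it is known as a promoter shared with the oppositely read Psmb9 gene. It holds 1 match to the Y box letters, at position -222, and 0 to the other motifs.
Tap1, chr17:34187306-34187555, plus strand: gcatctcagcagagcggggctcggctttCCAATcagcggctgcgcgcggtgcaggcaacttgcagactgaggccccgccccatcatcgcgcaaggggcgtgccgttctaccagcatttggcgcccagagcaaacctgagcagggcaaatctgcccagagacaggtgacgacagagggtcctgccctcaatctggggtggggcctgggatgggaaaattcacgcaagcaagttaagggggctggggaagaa

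Of the 6 class II chain genes above background, 4 had a ratio below 0 and 2 a ratio above 0 by their brightest probe sets, against 54.1% of all genes above 0. Those of the I-A and I-E chains were below 0 by less than the 0.29 scatter. H2-Aa, the alpha chain of the I-A molecule, had 9.37 with control and 9.20 with HDAC9 siRNA (-0.17). H2-Ab1, its beta chain, had 9.11 and 8.89 (-0.22). H2-Eb1, the beta chain of I-E, which has no partner in this strain, had 8.47 and 8.29 (-0.19). Cd74, the invariant chain, had 8.98 and 8.90 (-0.08). H2-Aa, H2-Ab1, H2-Eb1 and Cd74 kept a ratio below 0 under centring, quantile normalization and loess.

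Probe sets of the same class II gene did not give 1 answer. For H2-Aa, 1452431_s_at went the other way, from 7.08 to 8.03 (0.95), as did 1438858_x_at, from 6.90 to 7.13 (0.23). For H2-Ab1, 1451721_a_at went from 7.60 to 7.19 (-0.41) and 1425477_x_at from 7.22 to below background, which is lower by at least 0.88 log2 units. With the median over each gene's probe sets, the class II median of -0.18 became 0.00.

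The genes of the peptide exchange factors were mixed as well. H2-DMa, the alpha chain of H2-DM, had 8.84 and 9.03 (0.19). H2-DMb2, one of its beta chain genes, had 6.98 and 7.07 (0.09, or below 0 after quantile normalization and loess), and its other 2 probe sets were above the floor only on the HDAC9 siRNA array, by at least 0.93 and 0.41. The 2 probe sets shared by H2-DMb1 and H2-DMb2 disagreed: 1418638_at went from 8.85 to 7.76, 2.12-fold lower, while 1449580_s_at stayed at 9.12 and 9.16. Of all probe sets above background, 0.523% were at least 2-fold lower.

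The rest of the class II genes were at or under background. H2-Eb2 was above the floor only on the control array, with 6.57 against 6.10, and lower by at least 0.23. H2-Oa and H2-Ob, the chains of the H2-DM inhibitor H2-DO, were below background on both arrays. So was H2-Ea, by all 3 of its probe sets, on both arrays of this strain in which it is silent. Ciita, the master transactivator of class II genes, was below background by all 3 of its probe sets on both arrays, so it has no ratio.

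The H2-Aa and H2-Eb1 promoters are shown as those of an alpha and a beta chain gene with a small negative ratio. Both hold the Y box letters near the start, at position -48 in H2-Aa and -59 in H2-Eb1, and neither holds the kappaB or interferon element letters searched.
H2-Aa, chr17:34287824-34288073, minus strand: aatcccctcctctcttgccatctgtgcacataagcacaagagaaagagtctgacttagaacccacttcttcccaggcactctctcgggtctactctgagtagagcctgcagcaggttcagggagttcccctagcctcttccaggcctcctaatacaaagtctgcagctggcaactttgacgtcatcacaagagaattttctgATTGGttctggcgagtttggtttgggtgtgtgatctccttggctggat
H2-Eb1, chr17:34305617-34305866, plus strand: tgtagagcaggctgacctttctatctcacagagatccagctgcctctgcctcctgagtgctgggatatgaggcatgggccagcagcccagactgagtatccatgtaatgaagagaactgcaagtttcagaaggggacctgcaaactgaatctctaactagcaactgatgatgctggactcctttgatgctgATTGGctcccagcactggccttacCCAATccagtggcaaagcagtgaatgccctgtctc

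Class II signal in a peritoneal preparation can come from other cells, and in bulk RNA fewer cells of a type cannot be told apart from less transcript per cell. Of 10 B cell markers measured, 3 were above background by their brightest probe sets: Cd22 at 0.23, Ighm at 0.37 and Pax5 at least at 0.40. Other probe sets went otherwise: the second of Cd22 was at 0.0031, and of the 3 other Ighm probe sets above background 1427351_s_at was at -0.68 and the remaining pair, above the floor only on the control array, had bounds of -0.06. The defining genes Ms4a1, Cd79a and Cd79b were below background on both arrays. The summed linear signal of the list was 2380 with control and 2753 with HDAC9 siRNA, most of it from Cd22. Of 11 dendritic cell markers, 6 were above background with a median of 0.04. They ran from Clec10a, also a gene of macrophages, at -0.71 and Batf3 at -0.63 to Siglech at least at 0.49. Zbtb46 had 7.42 and 7.67 (0.26), with other probe sets at -0.31 and at least at 0.55. Flt3, Xcr1, Cd209a and Ccr7 were below background. The summed linear signal of the list was 6586 and 7179. Most of it came from Itgax, with log2 signals of 11.62 and 11.45 (-0.18), and Bst2, with 11.41 and 11.82 (0.41).

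Markers of other peritoneal cells moved in part. Of 8 markers of small peritoneal and monocyte-derived macrophages, which carry more class II than the large resident cells, 5 were above background with a median of -0.23: F13a1 was at -0.94, Fcrls at -0.84 and Vcan at 1.28, while Ccr2 and Irf4 were below background. Their summed signal was 34412 and 29082, nearly all of it from Lyz1 (ratio -0.23), and without Lyz1 it was 1923 and 1331. That Lyz1 ratio is from 1439426_x_at. By 1436996_x_at Lyz1 was at -0.12, and by the dim 1450822_at, from 6.65 to 7.02, it was at 0.37. Of 8 T cell markers, Cd28, Thy1, Lat and, as a bound, Cd8a were above background, with ratios from -0.64 to -0.79, and Cd3d, Cd3e, Cd3g and Cd4 were below it; the summed signal was 1729 and 1071. Of 9 mesothelial markers, all above background, 6 had a ratio below 0, among them Msln at -1.11 and Krt7 at -0.99, and 3 a ratio above 0, with Lrrn4 at 0.56, Wt1 at 0.44 and Upk3b at 0.24; the summed signal was 13296 and 14590. The part of these cells in the MHC values was not tested.

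Genes that process class II cargo were at small ratios by their brightest probe sets. Of 12 above background, 3 had a ratio above 0 and 9 below by brightest probe set, against 54.1% of all genes above 0. None of these ratios was past 1.5-fold and the median was -0.11. A dim Cd82 probe set, 1449611_at, went from below background to 7.16 (at least 1.77-fold higher), against 0.11 by the brightest. Of the 12, 9 had a mean log2 signal of 12 or more, where the median of all genes was -0.06. Ifi30, the thiol reductase of endosomes, had the largest difference (13.13 and 12.80, or -0.33), followed by the tetraspanin gene Cd9 at -0.25 and Marchf8, a ubiquitin ligase gene of the family that removes class II from the surface, at -0.19. The protease gene Ctsl was at -0.16, and Ctss, the protease that cuts the invariant chain, had 14.94 and 14.96 (0.02).

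By their brightest probe sets, none of 14 transcription factor genes of MHC promoters was past 1.5-fold, and the median was 0.05. The coactivator genes Ep300 and Crebbp were at 0.43 and 0.43, Rela at 0.31, and Rfx5, a subunit of the X box factor, at 0.28. Its partners Rfxank and Rfxap were at -0.05 and -0.03. Another Rfxank probe set, 1419310_s_at, went from 7.63 with control to 6.44 with HDAC9 siRNA (2.29-fold lower, -1.20). A dim Nfya probe set, 1427808_at, went from 6.90 to 7.68 (0.78), against -0.12 by the brightest. Irf1, which acts on class I and Tap1 promoters, was at 0.09.

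Cd80 and Cd86, the B7 ligands of CD28 and CTLA-4 that give T cells their second signal, were at small ratios by their brightest probe sets. Cd80 had 7.05 with control and 7.35 with HDAC9 siRNA by its brightest probe set (0.30) and 6.74 and 6.85 by another (0.11); its other 2 were below background. Cd86 had 7.26 and 7.18 (-0.09), but its second probe set, with 6.60 on the control array, was 1.32-fold higher with HDAC9 siRNA (0.40). That was past the 0.29 scatter, but between the 5th and 95th percentiles of genes with a mean log2 signal under 8, -0.64 and 0.88. Of 12 further costimulatory and coinhibitory ligand genes above background, none of the 10 measured on both arrays was past 1.5-fold by brightest probe set. Their median was 0.02 over the 12. A dimmer Cd40 probe set, 1460415_a_at, went from 6.50 to 7.11 (1.53-fold higher, 0.61), against 0.04 by the brightest. Tnfsf4, above the floor only on the control array, was lower by at least 0.26, and whether it passed 1.5-fold is unknown. The checkpoint ligand gene Pdcd1lg2 was at least at 0.58, from below background to 6.92, so that whether it passed 1.5-fold is unknown; Tnfsf9 was at 0.43, Cd83, whose product stabilises class II and Cd86 at the surface, at -0.40 and Icosl at 0.33.

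Cd1d1, which presents lipids to natural killer T cells, could not be given a direction. Its probe set 1449131_s_at had 9.42 and 9.53 (0.12), while 1449130_at had 9.78 and 8.86 (-0.91, or 1.88-fold lower). Of the other class I-like genes with no H2 name, 5 exceeded the floor, all 5 with a positive ratio and a median of 0.18, each within the scatter. These were Fcgrt, the neonatal Fc receptor, at 0.26, Ulbp1 at 0.22, the iron regulator Hfe at 0.18, Mr1, which presents vitamin B metabolites, at 0.09 and the protein C receptor gene Procr at 0.07. Of the genes for class I receptors and related lectins, Pirb, an inhibitory receptor for class I, was at -0.17 and the lectin gene Clec2d at -0.38.

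**Figure D4:**
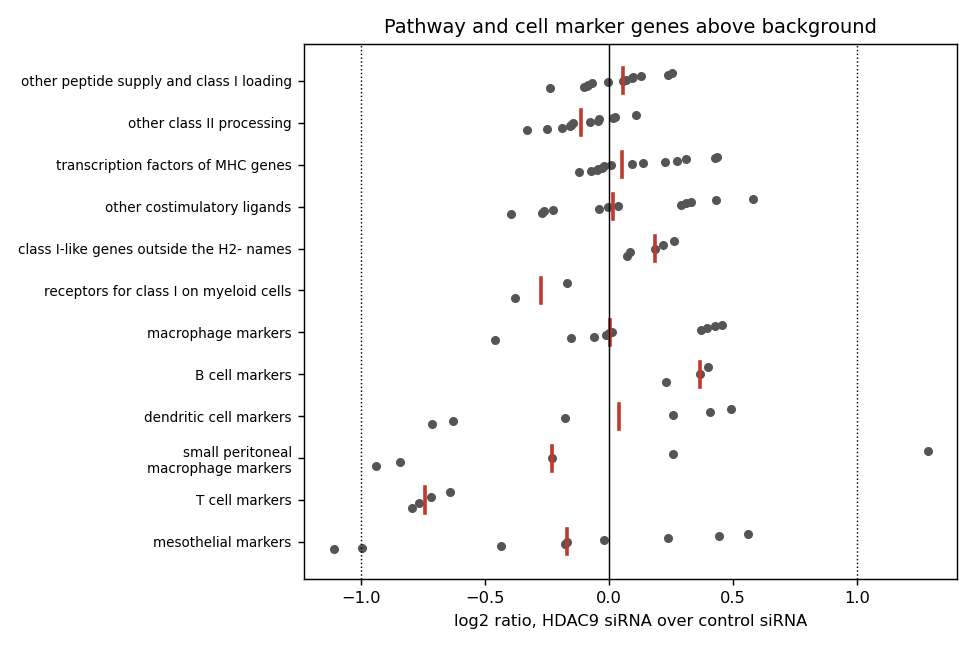
Ratio of the HDAC9 siRNA signal to the control signal, in log2 units (x axis), for genes above background in 6 lists of antigen presentation and regulation and 6 lists of cell markers (y axis); each point is a gene, red bars are list medians and dotted lines mark 2-fold. Points of the 6 presentation lists lie between -0.40 and 0.58, and only Vcan and Msln among the markers lie past 2-fold.

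Most members lie together on chromosome 17, so their neighbours were looked at as well, a choice made after the members' values were seen. Between Tapbp and H2-M3 in the RefSeq gene order, 18 members were above background, with a median of 0.06. The 77 other genes of that stretch above background had a median of 0.14, against 0.03 over all genes. A ratio above 0 was found for 55 of them, against 54.1% of all genes. Of these neighbours 1 was at least 2-fold higher, the collagen receptor gene Ddr1 at 1.05, and 0 were at least 2-fold lower. The shares over all genes were 1.44% and 0.372%. Cfb, the complement factor B gene, was at 0.60 and Brd2, next to H2-DMa, at 0.47. The median of the members was thus below that of the genes around them, with no matching for signal. These members pool class I, class II and loading genes, and the neighbours include Psmb8 and Psmb9. H2-Ke6, the dehydrogenase gene with an H2 name, had 9.06 and 9.01 (-0.06).

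Where a member had 2 probe sets above background, they disagreed in sign in some genes, as they did over the whole table. Of 11 such genes, the 2 brightest probe sets had the same sign in 6, against 3471 of 5671 genes over the whole table. Their scatter was 0.41, against 0.29 over all genes, and H2-Aa (a difference of -1.12 between brightest and second), Cd1d1 (1.03) and H2-DMb2 (-0.84) accounted for the widest gaps.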

How the data were processed

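The deposited table gives the authors' log2 signals, 1 column per array; the submitters' processing notes name MAS5, an Affymetrix summary of the probes in each set, without version or settings, and detection calls were not used here. The mean linear signal without the highest and lowest 2% was 497 on both arrays, so the authors' scaling was kept. Symbols came from a platform annotation of 2016: 34945 probe sets had 1 symbol, 932 several and 9160 none. Each gene took the values of the probe set whose linear signals had the highest mean. Probe sets above the floor made up 51.4% of the control array and 53.6% of the HDAC9 siRNA array.

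Precision is limited by the number of arrays, 1 in each group, and nothing was tested. Members and lists were chosen with earlier results of these data known. Named were all members and, from each list, up to 4 genes with the largest ratios. Marker genes were also named, as were the list genes Psmb8, Calr, Canx, Ctss, Cd82, Rfxank, Rfxap, Irf1, Procr, Nfya, Cd40 and Tnfsf4. These were chosen after their values were seen. Alternatives were centring, quantile normalization, loess (span 0.3), a lower floor (75th percentile) and a higher one (99th), a pseudocount of 1 in place of a floor, each gene's median probe set ratio, removal of _s_at, _x_at and _a_at probe sets, and 1.5-fold or 3-fold as threshold. Steps were tested on simulated data. Python 3.11.15, numpy 2.4.6, pandas 2.3.3, statsmodels 0.14.6 and matplotlib 3.10.9 were used.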

Additional observations from a re-analysis of the deposited data

How the results depend on the processing

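No paired analysis was possible because each group had 1 array. The number of members at least 2-fold higher was 0 and lower 0 under each scaling, each floor, the median over probe sets and without _s_at, _x_at and _a_at probe sets. With no floor 2 were higher, H2-Q2 and H2-M9, and 1 lower, H2-Ob, all below background on both arrays; at 1.5-fold 2 were higher. A list median was counted as moved past 0.1 log2 units. The class I median of 0.11 was 0.27 with no floor, which adds 5 genes below background, and 0.23 without _s_at, _x_at and _a_at probe sets, which leaves 6 genes. The class II median of -0.18 was 0.0024 by the median over probe sets and -0.045 without those probe sets, which leaves 4 genes. By the median over probe sets H2-Aa was the only class II gene to change sign, from -0.17 to 0.23. The loading and accessory median stayed between 0.10 and 0.21. Of 196 alternative values of the 26 measured genes, 191 stayed within the single-probe-set scatter and 5 moved by more: H2-Q5 (0.64 with the higher floor), Cd1d1 (-0.40 with the median of its probe sets, -0.91 without _s_at, _x_at and _a_at), H2-Aa (0.23) and H2-DMb2 (0.41), the last 2 by the median over probe sets. Signals near the floor limit H2-Q5, H2-T3, H2-Eb2, H2-Bl and H2-M10.1.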
